A study of Rattus norvegicus with 9 samples.

Results

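The integrated stress response genes examined here are 10 genes of the Atf4 branch and of endoplasmic reticulum stress. They are the transcription factors Atf4, Ddit3, Atf3 and Xbp1, the phosphatase subunit Ppp1r15a, the pseudokinase Trib3, the effectors Asns, Chac1 and Sesn2, and the chaperone Hspa5. All 10 were found by symbol among the 14217 genes named singly in the annotation of the array, through 13 of its 31042 probe sets other than controls. Every one of these 13 is annotated to a single gene. The group was chosen by function and by the signals of Atf4 and Ppp1r15a, which were higher than control at both exposure times, so the differences of these genes from control are given as a description, with no p-value.

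Expression was measured on 9 arrays of total RNA from rat hippocampus (Rattus norvegicus), which the labels describe as RNA of neurons from that region. Of these, 3 arrays are controls kept in artificial cerebrospinal fluid alone, 3 followed 1 h and 3 followed 6 h of treatment with ketone bodies. All groups share the tissue, and no genotype, strain, age, ketone species or concentration, and no exposure time for the control, is given in the sources used here. Whether replicate arrays came from different animals or cultures is not stated, and the errors and p-values cover only the spread between these arrays. Markers of astrocytes (7 of 7 measured), oligodendrocytes (6 of 6), microglia (6 of 7) and endothelium (5 of 5) lay above the intensity filter. So did those of excitatory (5 of 5) and inhibitory neurons (6 of 6). The filter is a percentile of the mean signal (log2 5.21), not a detection call, and Itgam (5.26) and Pecam1 (5.32) barely passed it. The oligodendrocyte marker Mbp (12.62) and the astrocyte marker S100b (12.32) were bright, so the RNA held more than neurons. In such bulk RNA, fewer cells of a type and less RNA per cell cannot be told apart.

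In the integrated stress response, kinases that sense misfolded protein, amino acid shortage, double-stranded RNA or haem shortage phosphorylate the translation factor eIF2. Most protein synthesis then slows, while the mRNA of the transcription factor ATF4 is translated better. ATF4 switches on genes for amino acid supply and stress signalling, and GADD34, the product of Ppp1r15a, recruits a phosphatase that removes the phosphate again. Endoplasmic reticulum stress additionally activates ATF6 and, through splicing of its mRNA, XBP1, which induce chaperones such as BiP, the product of Hspa5. Arrays measure mRNA amounts, so neither eIF2 phosphorylation, nor ATF4 translation, nor Xbp1 splicing was observed here.

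Promoters of these genes were examined for known response elements of the pathway. RefSeq promoters (build GRCr8) matched 9 of the 10 genes, all but Atf3, and the 250 bases before each gene's start were searched on both strands for 3 motifs that do not overlap in these genes. The motifs were the C/EBP-ATF response element TGATGNAA bound by ATF4 with a C/EBP partner, the cyclic AMP response element TGACGTCA, and the endoplasmic reticulum stress element, bound by ATF6 with NF-Y. They were present in 3.4%, 1.59% and 0.0657% of 33469 rat promoters of that length. The following stretches, printed 5′ to 3′ on the gene's strand, are the 5 matches among the 9 genes, with the match in capitals.
Ppp1r15a, cyclic AMP response element 66 to 59 bases before the start, chr1:105139615-105139702, minus strand: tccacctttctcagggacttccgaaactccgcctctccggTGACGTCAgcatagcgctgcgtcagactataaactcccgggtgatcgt
Chac1, C/EBP-ATF element 167 to 160 bases before the start, chr3:126795924-126796011, plus strand: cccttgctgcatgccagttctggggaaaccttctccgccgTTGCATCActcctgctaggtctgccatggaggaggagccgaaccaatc
Trib3, C/EBP-ATF element 21 to 14 bases before the start, chr3:161275534-161275594, minus strand: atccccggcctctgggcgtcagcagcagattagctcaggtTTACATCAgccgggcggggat
Xbp1, endoplasmic reticulum stress element 65 to 47 bases before the start, chr14:84604518-84604616, plus strand: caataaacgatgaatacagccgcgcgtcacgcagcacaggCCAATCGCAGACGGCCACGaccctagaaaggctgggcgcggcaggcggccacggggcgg
Hspa5, endoplasmic reticulum stress element 43 to 25 bases before the start, chr3:38452933-38453015, plus strand: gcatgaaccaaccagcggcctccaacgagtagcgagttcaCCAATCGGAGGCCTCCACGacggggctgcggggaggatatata

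In Chac1 and Trib3 the motif lies on the opposite strand, so its capitals read as the reverse complement. Atf4, Ddit3, Asns and Sesn2 were searched too and had no match to any of the motifs. The matches describe the letters in this window only.

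Atf4 (probe set 1367624_at), the central transcription factor of the response, gave scaled signals of 1495, 1407 and 1239 on the control arrays. The signals were 1995, 1842 and 1912 after 1 h of ketone bodies and 1693, 1968 and 1783 after 6 h. Every ketone array thus lay above every control array, and the exposure times overlapped. On the log2(signal + 16) scale after quantile normalization, the means were 10.49 ± 0.12 in control, 10.88 ± 0.06 at 1 h and 10.83 ± 0.09 at 6 h (SD, n = 3 arrays in each group). The log2 difference from control was 0.39 ± 0.08 at 1 h and 0.34 ± 0.08 at 6 h (SE), folds of 1.31 and 1.27.

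Ppp1r15a (probe set 1370174_at), which closes the feedback loop on eIF2, had the widest separation of the 10 genes. Its signals were 143.5, 146.5 and 114.3 in control, 214.5, 260.2 and 238.9 at 1 h, and 287.0, 304.1 and 215.9 at 6 h. Again all 6 ketone arrays lay above all 3 control arrays. The log2 difference from control was 0.80 ± 0.15 at 1 h and 0.95 ± 0.15 at 6 h, folds of 1.74 and 1.93.

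Atf3 (probe set 1369268_at), a transcription factor downstream of ATF4 that many other stress and growth signals also induce, followed the same order. Signals of 158.0, 134.9 and 120.3 in control stood against 203.3, 188.5 and 186.5 at 1 h and 247.5, 197.7 and 202.2 at 6 h. The ketone arrays were all above the controls here too. The log2 difference was 0.50 ± 0.13 at 1 h and 0.63 ± 0.13 at 6 h, folds of 1.41 and 1.55.

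Ddit3 (probe set 1369590_a_at), which encodes the pro-apoptotic factor CHOP and is a direct target of ATF4, was less separated. The control signals of 161.2, 159.0 and 124.0 overlapped those at 1 h (163.6, 210.4 and 153.3) and at 6 h (146.3, 177.1 and 146.1). Its log2 difference was 0.27 ± 0.15 at 1 h and 0.11 ± 0.15 at 6 h. Array 2 held the highest Ddit3 signal of each ketone group.

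**Figure D1:**
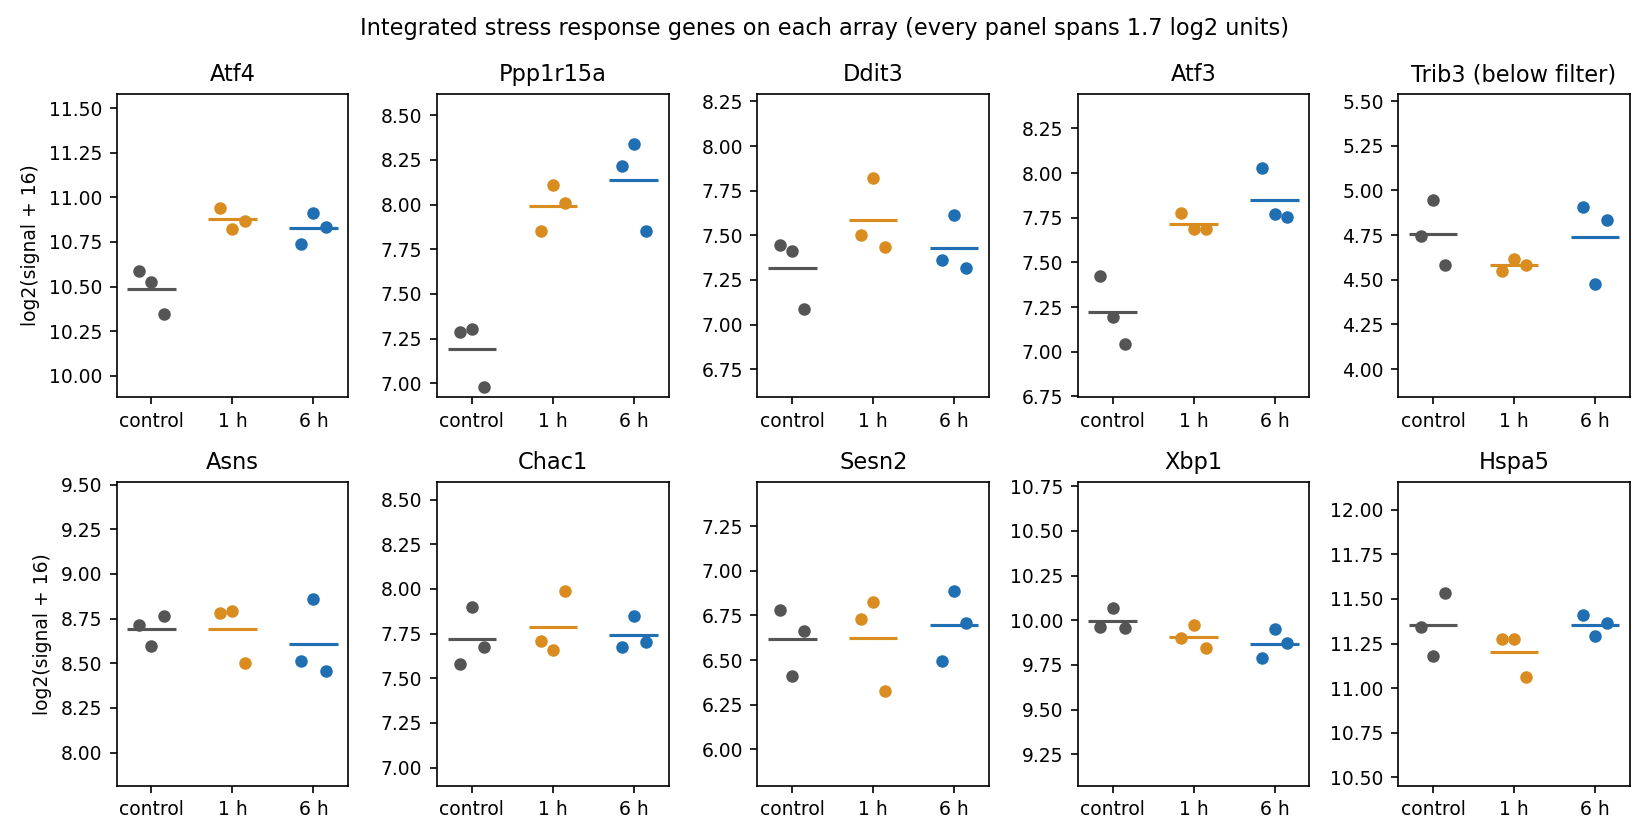
Each panel plots 1 gene's brightest probe set on the log2(signal + 16) scale after quantile normalization; points are arrays, bars are means of 3 arrays, and every panel spans the same range. In Atf4, Ppp1r15a and Atf3 all 6 ketone arrays lie above the 3 controls, while in Asns, Chac1 and Sesn2 the groups overlap.

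The metabolic and effector targets of ATF4 did not show this separation. Asns (probe set 1387925_at), the asparagine synthetase whose gene is a classic target of the amino acid response, had signals of 405.9, 372.9 and 417.4 in control, 423.6, 427.7 and 344.6 at 1 h, and 354.9, 443.3 and 334.1 at 6 h. These values overlapped throughout, with a log2 difference from control of 0.0007 ± 0.13 at 1 h and -0.08 ± 0.13 at 6 h. Chac1 (probe set 1389573_at), an enzyme that degrades glutathione, had 177.3, 225.3 and 190.2 in control, 193.6, 184.0 and 234.7 at 1 h, and 189.7, 210.5 and 195.0 at 6 h. Its log2 differences were 0.07 ± 0.13 and 0.02 ± 0.13, both smaller than the spread between arrays (SD 0.16 in control).

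Sesn2, a sestrin that restrains growth signalling, is represented by a pair of probe sets. The brighter (1391607_at) gave 95.81, 72.22 and 89.34 in control, 88.95, 94.96 and 60.15 at 1 h, and 69.51, 100.2 and 92.04 at 6 h, with log2 differences of 0.01 ± 0.17 and 0.08 ± 0.17. The other (1396901_at) stayed at signals of 9.222 or less on every array, under the intensity filter (a signal of about 21.0). Trib3, a pseudokinase that CHOP and ATF4 induce, was under that filter with all 3 of its probe sets. The brightest of them (1386321_s_at) read 10.23, 16.45 and 8.763 in control, 6.781, 7.894 and 8.083 at 1 h, and 11.40, 7.131 and 13.47 at 6 h. At signals this dim no direction was read for Trib3, so 9 of the 10 genes entered the fit.

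The endoplasmic reticulum genes lay close to control. Xbp1 (probe set 1371249_at), the transcription factor of the IRE1 branch, had 981.6, 1025 and 956.5 in control, 943.3, 1003 and 916.2 at 1 h, and 896.6, 976.7 and 909.6 at 6 h. The deposited signals at 6 h overlapped the controls; after normalization the 6 h values lay just below them, with a log2 difference of -0.09 ± 0.08 at 1 h and -0.13 ± 0.08 at 6 h. Hspa5 (probe set 1370283_at), the chaperone BiP and the usual reporter of endoplasmic reticulum stress, had 2482, 2212 and 2808 in control, 2510, 2553 and 2264 at 1 h, and 2686, 2632 and 2524 at 6 h. Its groups overlapped, with log2 differences of -0.15 ± 0.10 at 1 h and 0.0038 ± 0.0957 at 6 h. Centring arrays on their medians in place of quantile normalization turned the 1 h value to 0.05 for Xbp1 and 0.07 for Hspa5, so no direction is read for either.

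Counted over the panel, limma called 0 of 9 tested genes at an adjusted p of 0.05 in either comparison with control, beside 0.0322% of all 18625 tested probe sets at 1 h and 0.0268% at 6 h. Groups did not overlap, with ketone arrays higher, for 3 of 9 at 1 h (13.0% of all probe sets) and the same 3 of 9 at 6 h (6.05%): Atf4, Ppp1r15a and Atf3. With ketone arrays lower it was 0 of 9 at 1 h (8.26%) and 1 of 9, Xbp1, at 6 h (3.15%). Because the group was chosen with these contrasts in view, nothing is read from these counts. The median log2 difference of the 9 genes was 0.07 at 1 h and 0.08 at 6 h, where all tested probe sets had 0.03 and 0.01 and, counted like the members with the brightest probe set per gene, 10707 genes had 0.07 and 0.04. The comparisons share their control arrays.

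**Figure D2:**
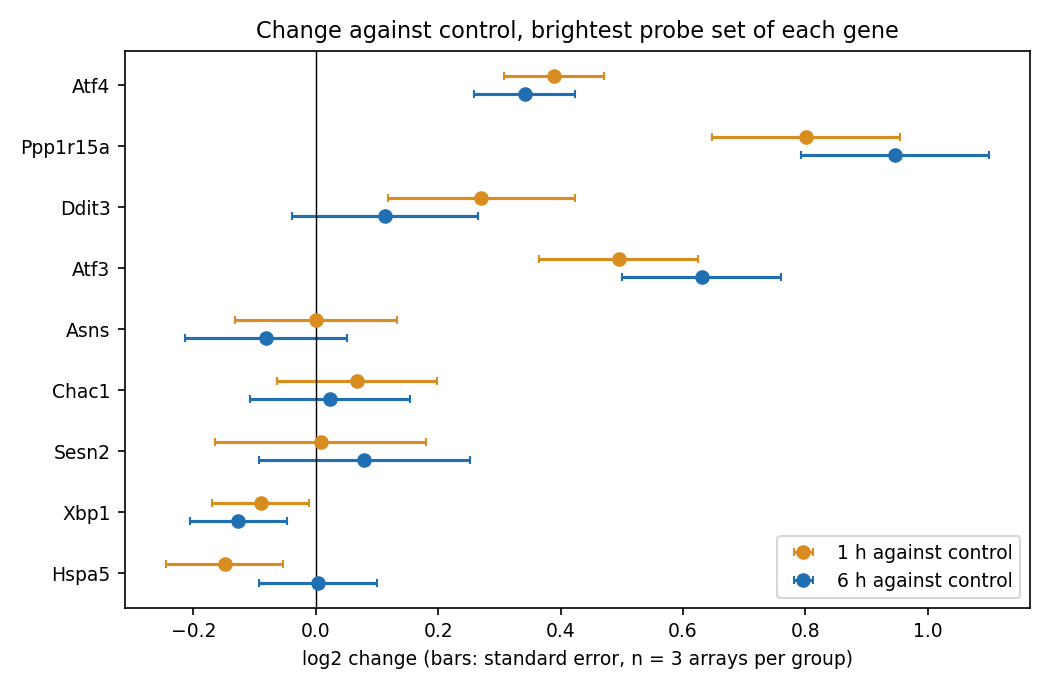
Points give the log2 change against control of the 9 tested genes at 1 h and at 6 h, and bars the standard error from the fit across all probe sets (3 arrays per group). Ppp1r15a has the highest values (0.80 and 0.95), followed by Atf3 and Atf4, while Asns, Chac1 and Sesn2 lie within 1 standard error of 0.

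The comparison of 6 h with 1 h asks whether the longer exposure differed from the shorter. The choice of the group did not use the difference between the times, so it was tested. It did use the rise of Atf4 and Ppp1r15a over control at both times. The results of these genes here are therefore not independent of the choice. Ppp1r15a differed by 0.15 ± 0.15 (95% interval -0.20 to 0.49), Atf3 by 0.14 ± 0.13 (-0.15 to 0.42) and Atf4 by -0.05 ± 0.08 (-0.23 to 0.13). For the other tested genes the log2 difference ran from -0.16 ± 0.15 in Ddit3 to 0.15 ± 0.10 in Hspa5 (-0.06 to 0.37), whose 6 h values all lay above the 1 h values after normalization. The adjusted p by limma was 0.996 for each of the 9 genes. Calls were 0 of 9, as for all probe sets (0%), and at an unadjusted p under 0.05 there were 0 of 9 as well (1.31% of all probe sets higher and 1.41% lower). Without overlap were 1 of 9 higher, Hspa5 (3.55%), and 0 lower (4.04%). The intervals leave room for differences of up to 0.49 in Ppp1r15a, so these arrays do not show that the exposure times were alike.

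Across the 9 arrays Atf4, Ppp1r15a and Atf3 varied together, with Pearson correlations of 0.85 to 0.91 over their 3 pairs. The same 3 genes correlated with Ddit3 at 0.44 to 0.63, and with Asns, Chac1 and Sesn2 at -0.22 to 0.24. With Xbp1 and Hspa5 the values were -0.74 to -0.18. These describe the arrays, which share their scaling. Atf4, Ppp1r15a and Atf3 differed between control and ketone groups, and that difference enters all of these correlations. Among tested probe sets of a single gene, those most like Atf4 over the 9 arrays were Chit1 (r = 0.975), Aarsd1 (0.970) and S100a16 (0.963). Those most like Ppp1r15a were Cmtm5 (0.978), Mppe1 (0.977) and Hsd17b12 (0.967). None of the genes in these 2 sets of 3 is in the panel or in the wider lists.

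RNA quality also differed between arrays, read from beta-actin, as the log2 signal of its 3′ probe set minus that of its 5′ probe set. Controls lay between 1.27 and 1.42, the 1 h arrays at 1.39, 2.16 and 2.02, and the 6 h arrays at 2.58, 1.92 and 1.03. The ratio increases as RNA breaks down or labelling falls short of the 5′ end. Over the 9 arrays the ratio correlated at 0.30 with Atf4, 0.65 with Ppp1r15a and 0.56 with Atf3. The 6 h array with the lowest ratio of all (array 3) had an Atf4 signal of 1783, a Ppp1r15a signal of 215.9 and an Atf3 signal of 202.2, each above every control. The 1 h array with a ratio within the control range (array 1) had the highest Atf4 signal of the series, 1995. For Ppp1r15a, however, this array (214.5) and array 3 of 6 h (215.9) had the lowest signals of the ketone arrays. With the ratio as a covariate, an alternative added after seeing the data, the log2 difference from control at 1 h and 6 h was 0.43 and 0.38 for Atf4, 0.68 and 0.82 for Ppp1r15a, and 0.45 and 0.58 for Atf3. Array 3 of 1 h and array 1 of 6 h also stood apart on the first principal component (45% of the variance), at 35.54 and 39.43 against -27.7 to 11.02 for the other 7 arrays. That component correlated at 0.40 with Atf4, 0.47 with Ppp1r15a and 0.61 with Atf3. Without both arrays, likewise added after seeing the data, the differences were 0.39 and 0.38 for Atf4, 0.78 and 0.90 for Ppp1r15a, and 0.50 and 0.54 for Atf3. Gapdh, read like beta-actin, gave 0.132, 0.021 and 0.243 in control, 0.063, 0.136 and 0.123 at 1 h, and 0.459, 0.075 and 0.036 at 6 h. By Gapdh only array 1 of 6 h lay outside the control range. The part of RNA quality in the values of the 3 genes was not tested.

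**Figure D3:**
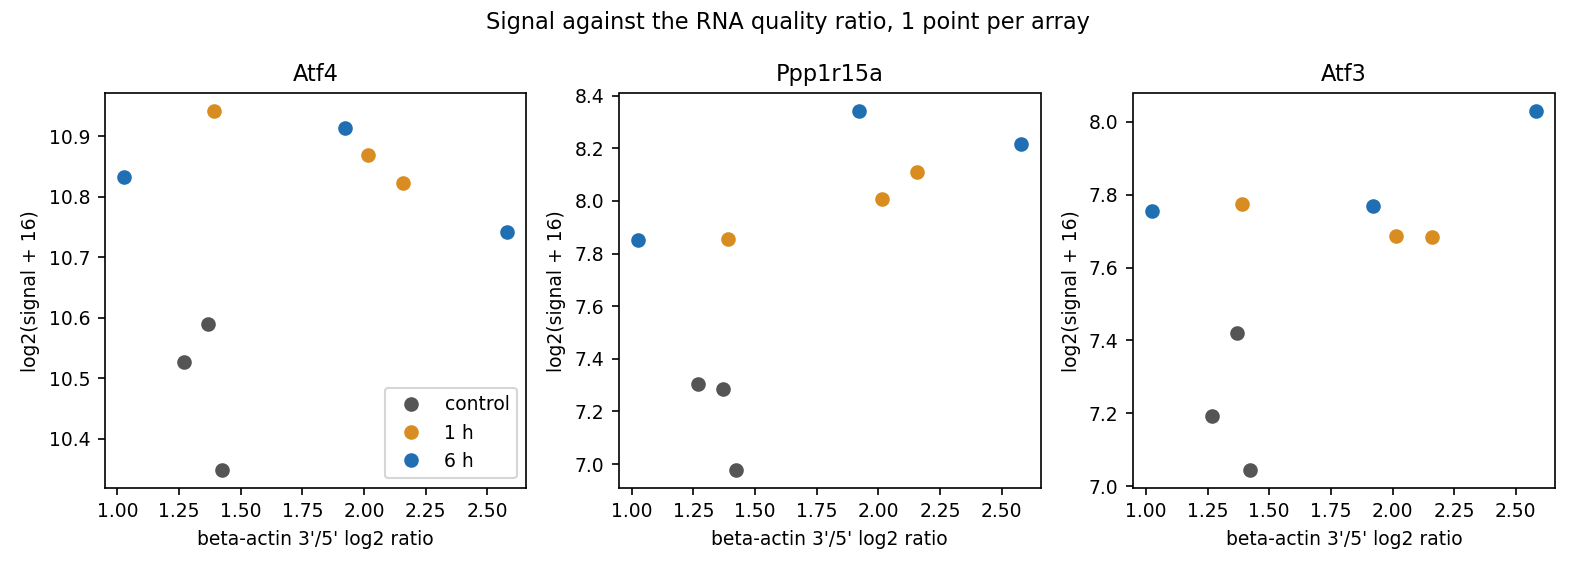
Each point is 1 array, with the beta-actin 3′/5′ log2 ratio on the horizontal axis and log2(signal + 16) of Atf4, Ppp1r15a or Atf3 on the vertical axis. Ratios run from 1.27 to 1.42 in the controls and from 1.03 to 2.58 in the ketone arrays, and the ketone points lie above the control points in each gene.

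Summed signals of cell type markers, taken before normalization, moved with the groups in places. For inhibitory neuron markers the sum was 5119.8 to 5417.6 in control, 5880.6 to 6362.8 at 1 h and 5656.7 to 5969.2 at 6 h, both ketone groups above the controls. These sums weigh bright genes most: at 1 h Pvalb (0.65), Sst (0.37), Slc32a1 (0.19) and Npy (0.17) had positive log2 differences, and the GABA synthesis genes Gad1 (-0.09) and Gad2 (-1.30 ± 0.51) negative ones, with Gad2 at -0.50 ± 0.51 at 6 h. Excitatory neuron markers summed to 5176.4 to 5994.9 in control, 4611.1 to 5132.8 at 1 h and 4218.9 to 5289.4 at 6 h, and all 5 had negative log2 differences at both times. Endothelial markers gave 652.6 to 725.5, 741.0 to 749.4 and 720.3 to 823.5. Microglial sums (923.9 to 982.9 in control, 922.3 to 958.8 and 878.5 to 958.2), those of astrocytes (16673.6 to 17575.4, 17154.7 to 19079.5 and 17333.1 to 18188.3), of oligodendrocytes (15946.5 to 16829.4, 16401.1 to 18795.5 and 16416.4 to 17697.3) and of choroid plexus (4372.0 to 4641.5, 3892.3 to 4610.6 and 4247.4 to 5136.0) overlapped between groups. Single microglial markers differed in sign at 1 h. Aif1 (0.75), Tmem119 (0.43) and Itgam (0.27) had positive log2 differences, and Csf1r (-0.01), P2ry12 (-0.33) and Cx3cr1 (-0.39) negative ones. Of the 4 choroid plexus markers measured, 2 passed the filter, Ttr and Folr1. After normalization Ttr had a log2 difference from control of -0.21 ± 0.06 at 1 h, without overlap, and -0.02 ± 0.06 at 6 h. Folr1 had -0.03 ± 0.15 and 0.09 ± 0.15. No marker was at 0, and the dimmest was the choroid plexus gene Kl at a mean signal of 3.71. The part of cell makeup in the values of the 10 genes was not tested.

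The rest of the pathway was read from 5 lists that hold none of the 10 genes: 102 genes, of which 96 had a probe set and 91 passed the filter. By limma 0 of 91 were called in any comparison (lowest adjusted p = 0.299 at 1 h, 0.781 at 6 h and 0.996 for 6 h against 1 h). At an unadjusted p under 0.05, 7 were higher at 1 h (7.69%, beside 6.68% of all probe sets) and 1 lower (1.1%, beside 4.67%). At 6 h, 5 were higher (5.49%, beside 2.79%) and 2 lower (2.2%, beside 1.47%). For 6 h against 1 h, 0 were higher and 4 lower (4.4%, beside 1.41%). The lists count the brightest probe set of each gene. Counted in that way, 10707 genes had 9.63% higher and 3.68% lower at 1 h, so the lists' share of higher genes lay below this background. The shares were 3.59% and 1.03% at 6 h, and 1.47% and 1.87% for 6 h against 1 h. Differences from control were positive for 61 of 91 at each time (67%), with medians of 0.07 and 0.05. Over the 10707 genes with the brightest probe set each, 63.5% were positive at 1 h and 61.3% at 6 h, with medians of 0.07 and 0.04, so the lists lay near this background. Over all probe sets 55.3% and 53.8% were positive. Groups did not overlap, with ketone arrays higher, for 12 of 91 at 1 h (13.2%, beside 13.0% of all probe sets) and 8 at 6 h (8.79%, beside 6.05%). With ketone arrays lower it was 2 at 1 h (2.2%, beside 8.26%) and 2 at 6 h (2.2%, beside 3.15%). The shares without overlap were not counted over the brightest probe set per gene, so this background is not like for like. Lack of overlap in a single gene named below is therefore a description only.

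**Figure D4:**
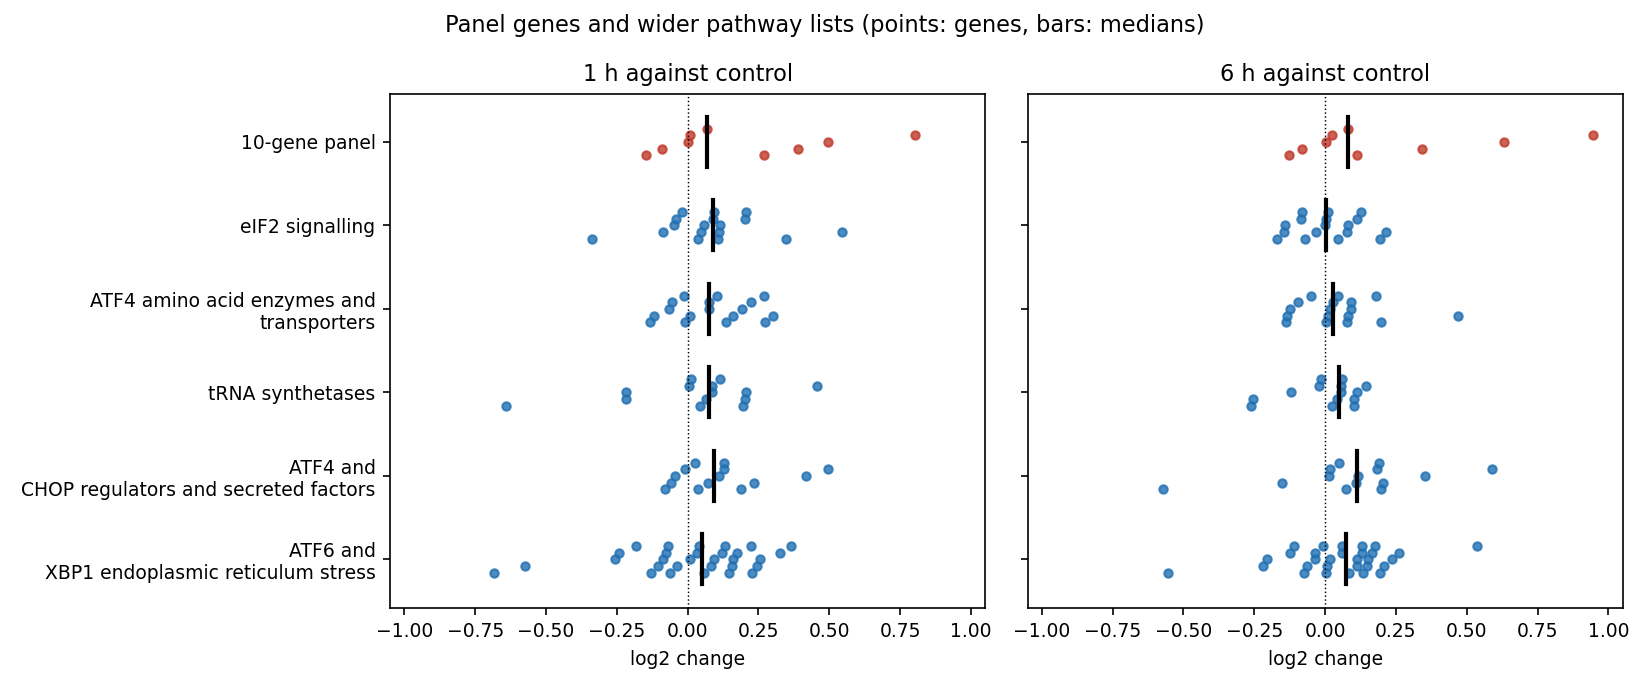
Points are genes (brightest probe set, those above the filter), placed by their log2 change against control at 1 h (left) and 6 h (right); bars are list medians. The medians of the 5 wider lists lie between 0.0038 and 0.11, and the panel's own points reach 0.95.

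Upstream of Atf4, the list of eIF2 kinases, eIF2 and eIF2B subunits and their regulators had 0 of 17 called at each time, with medians of 0.09 at 1 h and 0.0038 at 6 h. Eif2b3, a subunit of the exchange factor eIF2B, had 0.54 ± 0.13 at 1 h (adjusted p = 0.299, values of 7.70, 7.63 and 7.84 against 7.27, 7.19 and 7.09 in control) and 0.22 ± 0.13 at 6 h. Eif2ak1, the haem-regulated kinase, had 0.35 ± 0.14 at 1 h (adjusted p = 0.397), while a dimmer probe set gave -0.18, and 0.08 ± 0.14 at 6 h. Eif2b2, another subunit of eIF2B, had 0.21 ± 0.10 at 1 h. At 6 h the smallest p-values after Eif2b3 belonged to the co-chaperone Dnajc3 (0.19 ± 0.14) and to Eif2b4 (0.13 ± 0.10). The other kinases, chosen for their role after their values were seen, were the double-stranded RNA sensor Eif2ak2 (0.05 ± 0.13 at 1 h, 0.0038 ± 0.1343 at 6 h), the endoplasmic reticulum kinase Eif2ak3 (0.09 ± 0.18, -0.09 ± 0.18) and the amino acid sensor Eif2ak4 (-0.09 ± 0.17, -0.14 ± 0.17). Ppp1r15b, the constitutive sister of Ppp1r15a and likewise chosen afterwards, had -0.34 ± 0.19 at 1 h and -0.17 ± 0.19 at 6 h, opposite in sign to Ppp1r15a.

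Among enzymes and transporters of amino acid supply that ATF4 controls, 0 of 17 tested were called, with medians of 0.07 at 1 h and 0.03 at 6 h. Those with the smallest p-values at 1 h were the serine synthesis phosphatase Psph (0.27 ± 0.12, adjusted p = 0.437), the transsulfuration enzyme Cbs (0.30 ± 0.15) and the neutral amino acid transporter Slc1a4 (0.27 ± 0.17). At 6 h they were the glutamine transporter Slc1a5 (0.47 ± 0.20, adjusted p = 0.987, in a probe set whose control mean of 5.13 on the log2 scale is below the filter at 5.21), Slc38a2 (0.20 ± 0.12) and Psph (0.18 ± 0.12). Phgdh, the first enzyme of serine synthesis, had 0.07 ± 0.11 and -0.10 ± 0.11. The list's lowest and highest log2 differences were -0.13 and 0.30 at 1 h and -0.14 and 0.47 at 6 h.

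Transfer RNA synthetases, which charge amino acids onto tRNA and several of which ATF4 induces, had 0 of 14 called, with medians of 0.08 at 1 h and 0.05 at 6 h. Vars1 had 0.46 ± 0.12 at 1 h (adjusted p = 0.32) and 0.14 ± 0.12 at 6 h, and its values of 7.16, 7.10 and 7.12 at 1 h stood above the 6.77, 6.52 and 6.72 of the controls. Sars1 had 0.20 ± 0.09 and 0.10 ± 0.09. Gars1 had 0.20 ± 0.10 at 1 h, with -0.21 in its other probe set, and Nars1 -0.25 ± 0.14 at 6 h. Over the synthetase list, log2 differences ran from -0.64 ± 0.37 (Eprs1) to 0.46 at 1 h, with 11 positive and 3 negative. At 6 h they ran from -0.26 to 0.14, with 9 positive and 5 negative.

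Regulators and secreted factors downstream of ATF4 and CHOP had 0 of 14 called, with medians of 0.09 at 1 h and 0.11 at 6 h. Cebpb, a C/EBP partner of ATF4 that inflammatory signals also induce, had 0.49 ± 0.17 at 1 h (adjusted p = 0.381) and 0.59 ± 0.17 at 6 h (adjusted p = 0.949). Its values were 7.15, 7.07 and 6.81 in control, 7.25, 7.75 and 7.51 at 1 h and 7.89, 7.53 and 7.38 at 6 h, so every ketone array lay above the controls. Bbc3, the pro-apoptotic PUMA, had 0.42 ± 0.14 and 0.35 ± 0.14 (adjusted p = 0.367 and 0.987), also without overlap. Ddit4, an inhibitor of mTORC1 that ATF4 and glucocorticoids induce, had -0.08 ± 0.16 at 1 h and -0.57 ± 0.16 at 6 h (adjusted p = 0.781). Its 6 h values of 8.25, 8.27 and 8.41 lay below the controls at 9.17, 8.97 and 8.51, a sign opposite to that of Atf4. Eif4ebp1, a repressor of cap-dependent translation, had 0.19 ± 0.15 at 1 h. The secreted factors Fgf21, Gdf15 and Stc2 were under the filter.

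The ATF6 and XBP1 genes of endoplasmic reticulum protein folding and disposal had 0 of 30 called, with medians of 0.05 at 1 h and 0.07 at 6 h. Sel1l, an adaptor of the degradation machinery, was the furthest below control, by -0.68 ± 0.17 at 1 h (adjusted p = 0.3) and -0.56 ± 0.17 at 6 h (adjusted p = 0.987). Its values were 6.95, 7.21 and 7.20 in control, 6.47, 6.35 and 6.51 at 1 h, and 6.28, 6.47 and 6.94 at 6 h, without overlap. Creld2, a secreted stress-induced factor, had 0.37 ± 0.12 at 1 h (adjusted p = 0.359) and 0.06 ± 0.12 at 6 h. The disulfide isomerase P4hb had 0.23 ± 0.12 at 1 h. Edem1, which marks misfolded glycoproteins for disposal, had 0.54 ± 0.17 at 6 h (adjusted p = 0.987), but -0.24 in another probe set. Derl1, a channel component of the same route, had 0.23 ± 0.10 at 6 h, with 0.02 and -0.03 in its other probe sets. Hsp90b1, the chaperone GRP94 and chosen here beside Hspa5 after its values were seen, had -0.13 ± 0.11 at 1 h and 0.0079 ± 0.1129 at 6 h.

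Between the exposure times, the wider genes with the smallest p-values were mostly lower at 6 h than at 1 h. Over all 91 tested list genes the difference was positive for 40 (44%). Among the 10707 genes with the brightest probe set each it was positive for 42.8%, so the lists lay near this background. Ddit4 differed by -0.49 ± 0.16, Eif2b3 by -0.33 ± 0.13, Vars1 by -0.31 ± 0.12 and Creld2 by -0.31 ± 0.12, which are the 4 with an unadjusted p under 0.05. Eif2ak1 (-0.27 ± 0.14), Gpt2 (-0.24 ± 0.16, with 0.39 in its other probe set), Cbs (-0.21 ± 0.15), Phgdh (-0.17 ± 0.11), Eif2b1 (-0.16 ± 0.11), Gars1 (-0.14 ± 0.10) and Sars1 (-0.10 ± 0.09) had the same sign. Edem1 (0.28 ± 0.17, but -0.15 in another probe set), Nfe2l1 (0.26 ± 0.15), Dnajb11 (0.17 ± 0.10) and Vegfa (0.16 ± 0.12) had the opposite sign. The adjusted p by limma was 0.996 for each of these 15 genes.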

How the data were processed

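Values came from 1 table of 31099 probe sets and 9 arrays. The deposited values are linear signal intensities; their software and chip description were not given in the sources used here, and the linear scale was read from the values. After removal of the lowest and highest 2% their mean is 150.05 on every array, as global scaling would give. The 57 control probe sets were left out of the tests, log2(signal + 16) was quantile-normalized, and probe sets with a mean under the 40th percentile (log2 5.21) were dropped, which left 18625. One limma 3.58.1 fit (R 4.3.3) over the 3 groups, with an intensity trend and 6 residual degrees of freedom before moderation, gave changes, standard errors and Benjamini-Hochberg adjusted p-values over all tested probe sets at a threshold of 0.05. Precision is limited by the number of arrays.

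Names came from the platform annotation, matched through Entrez numbers to a rat RefSeq table (20758 matched, 68 not). The brightest probe set stands for a gene. The members and lists were chosen with earlier results of these data known. Named genes are all members and, from each list and comparison, the 3 with the smallest p; likeness names the 3 highest correlations. The steps were tested on simulated data. Alternatives concerned normalization, pseudocount, filter, variance trend, array weights, a replicate block, the samples and probe sets used, and each array left out. Figures were drawn with matplotlib 3.10.9.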

Additional observations from a re-analysis of the deposited data

Results flagged for a closer look

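In 1 of the dim Trib3 probe sets (1370694_at) all 3 arrays at 1 h lay above the control mean and all 3 at 6 h below it, a difference of -0.52 between the log2 means at 6 h and 1 h. Its signals ran from 0.5315 to 9.635 over the 9 arrays, under the intensity filter of about 21.0, and the difference was not tested. The other Trib3 probe sets gave -0.24 and 0.16.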

How the results depend on the processing

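Log2 changes of Atf4, Ppp1r15a and Atf3 against control were positive in all 22 alternatives at both times. They ran from 0.32 to 0.58 (1 h) and 0.27 to 0.47 (6 h) for Atf4, from 0.64 to 0.87 and 0.76 to 1.09 for Ppp1r15a, and from 0.39 to 0.60 and 0.50 to 0.73 for Atf3. Little could turn these signs, because all ketone arrays lay above the controls. The filter, variance trend and replicate block settings leave a log2 change as it is. Atf4 and Ppp1r15a were also chosen for their rise, so no support is read from the constant sign. Of the panel 0 genes were called in any alternative at 1 h, and at 6 h only Ppp1r15a with 1 probe set per gene (1 call among the members). That setting called 11 of 10707 genes. The choice of the group used the rise of Ppp1r15a, so nothing is read from its call. Over the 5 wider lists 0 genes were called in any alternative. The members' median ran from 0.0459 to 0.158 at 1 h with 1 array left out and was 0.156 without array 3 of 1 h and array 1 of 6 h together, the arrays apart on the first principal component. At 6 h it ran from 0.022 to 0.16. With 1 array left out, medians of the ATF4 amino acid list ran from 0.017 to 0.115 at 1 h and -0.0227 to 0.0952 at 6 h, of the regulators from 0.0353 to 0.184 and 0.0724 to 0.182, of the endoplasmic reticulum list from 0.0017 (without array 3 of 1 h) to 0.0752 and 0.0257 to 0.0993, of eIF2 signalling from 0.0702 to 0.105 and -0.0118 to 0.0273, and of the synthetases from 0.0488 to 0.114 and 0.0024 to 0.0965. Median centring moved these medians to between 0.144 and 0.202 at 1 h, where all probe sets moved to 0.0958.

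Calls over all probe sets at 1 h (6) became 3 with no filter, 25 with array weights, 2 with the replicate block, 10 with 1 probe set per gene, and 0 with the beta-actin ratio as a covariate or without both arrays, settings added after seeing the data. They ran from 0 to 10 with 1 array left out. At 6 h (5) they became 2 with values as deposited or no filter, 11 with 1 probe set per gene, and 1 with median centring, the replicate block, only the compared groups, the covariate, both arrays left out, or any 1 array left out. For 6 h against 1 h they stayed at 0. The cause was not tested. Same-numbered arrays deviated together at -0.36 to 0.54 (over 0.1 in 3 of 9 pairs), and differently numbered ones at -0.44 to 0.53 (7 of 18), so the arrays were not treated as pairs; whether they share an animal or day is not stated.

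Among uncalled 6 h against 1 h differences, the sign turned for Chac1 (0.0127 with array weights, 0.0897 without both arrays, 0.0575 without array 3 of 1 h, with a range of -0.107 to 0.0575 as each array was left out), Sesn2 (-0.0785 without array 3 of 1 h, -0.0248 without array 2 of 6 h, range -0.0785 to 0.171) and Xbp1 (0.0047 without array 1 of 6 h, range -0.0773 to 0.0047).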
